A study of Homo sapiens with 12 samples.

Results

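The genes described here encode the proteins of the mitochondrial ribosome, as measured by Illumina HT-12 bead arrays in L428, an established cell line of Hodgkin lymphoma. Membership went by name: it takes in every symbol of the deposited signal table that starts with MRPL (large subunit) or MRPS (small subunit) followed by a number. There were 77 such symbols, 48 MRPL and 29 MRPS, among 31303 symbols in the table. All 77 passed the filter of detection on at least 3 of the 12 arrays, which left 14953 genes for testing, and 76 were detected on all 12 arrays. Each gene was read through its brightest probe.

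Of the 12 samples, 3 were control cells, 3 had 25 nM ixazomib, 3 had 71.25 nM, both doses over 24 h, and 3 came from L428 cells resistant to the drug. Ixazomib blocks the proteasome, the enzyme complex that degrades most tagged proteins in the cell, and is taken by mouth. The array columns name the drug MLN2238, which is the active form of ixazomib. The labels give the resistant cells no dose, and do not say how resistance was raised, whether the cells are 1 clone, or whether drug was present at harvest. The description of 1 sample titled 71.25 nM says 25 nM, and the sample was kept with its title. Biological triplicates are mentioned with the 25 nM treatment, and for the other groups separate cultures are only implied by the numbered titles, so the p-values rest on the spread among these 3 samples a group, part or all of which may be technical.

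Mitochondria keep a small genome that encodes core subunits of the respiratory chain, and a dedicated ribosome in the matrix translates it. The RNAs of that ribosome come from mitochondrial DNA, but its proteins are all encoded in the nucleus, made on cytosolic ribosomes and imported. Some members descend from bacterial ribosomal proteins, and others were added during mitochondrial evolution. In cells of the blood lineage, as elsewhere, loss of mitochondrial translation removes complexes of oxidative phosphorylation that mix nuclear and mitochondrial subunits.

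Array-wide facts were as follows. Before normalization the mean signal was 343.5 to 400.5 on control arrays, 316.4 to 384 with 25 nM, 342.3 to 353.8 with 71.25 nM and 293.2 to 326.7 on resistant arrays, and 17100 to 18785 of 47227 probes were detected per array. Of 9 Hodgkin markers 8 were detected on all arrays, among them TNFRSF8 (CD30), FUT4 (CD15) and IRF4. In resistant cells 5 of the 9 (55.6%) were lower than in control and 2 (22.2%) higher, beside 24.1% and 23% of all genes. PAX5 was detected on no array, and 4 of 5 T cell markers stayed below the filter, CD3D, CD3E and CD3G at 0 detected arrays. Of 5 myeloid markers 3 passed the filter and 2 of them were higher in resistant cells than in control. Whether signal, markers or normalization had a part in the members' results was not tested. In bulk RNA, fewer cells of a kind and less RNA per cell cannot be told apart.

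Some names needed correction. MRPS36 is now called KGD4 and is known as a part of the alpha-ketoglutarate dehydrogenase complex, so it was counted among the 77 but in neither subunit. MRPS18A and MRPS30 carry small-subunit names but sit in the large subunit of the human structure and were counted there. MRPL42P5 is a pseudogene of MRPL42. This left 49 large-subunit and 26 small-subunit genes. RefSeq named 98 pseudogenes after 41 of the members, and whether probes also read such copies was not tested.

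The start of a gene holds the sequences that transcription factors read, so promoter windows of 250 bases before to 50 bases after the start site were taken from RefSeq (GRCh38.p14). The table held 83 windows for 67 of the 77 members, out of 35116 windows in all. The motifs searched, each on both strands, were the cores of NRF1, ETS factors and YY1, the E-box and a pair of heat shock units. The windows below are shown because they belong to the member that fell most (MRPS26), to a member whose neighbour moved the other way (MRPL14), to one with the NRF1 core (MRPL17) and to one that rose beside its neighbour (MRPL18). They were picked with the values known. Capitals mark motif letters. In MRPS26 these are the ETS core CCGGAAG, read on the other strand as CTTCCGG. In MRPL17 they are the NRF1 core GCGCATGCG, whose first matches, on opposite strands, overlap. In MRPL18 they are the heat shock units GAANNTTC. The MRPL14 window shown, 1 of 3 that RefSeq gives, held none of the searched motifs, and an E-box stands in another of them.
MRPS26 (chr20:3045802-3046101, plus strand): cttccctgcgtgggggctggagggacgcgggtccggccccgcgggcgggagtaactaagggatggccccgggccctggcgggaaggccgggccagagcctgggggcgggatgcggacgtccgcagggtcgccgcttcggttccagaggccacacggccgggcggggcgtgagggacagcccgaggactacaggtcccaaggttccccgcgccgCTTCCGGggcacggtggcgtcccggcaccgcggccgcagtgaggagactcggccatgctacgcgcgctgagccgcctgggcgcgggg
MRPL14 (chr6:44127259-44127558, minus strand): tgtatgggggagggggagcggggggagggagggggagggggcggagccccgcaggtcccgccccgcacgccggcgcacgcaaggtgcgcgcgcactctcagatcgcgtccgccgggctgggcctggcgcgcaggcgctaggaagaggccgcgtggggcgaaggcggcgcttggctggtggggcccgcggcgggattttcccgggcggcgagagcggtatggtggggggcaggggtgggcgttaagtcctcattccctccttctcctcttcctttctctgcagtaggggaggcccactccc
MRPL17 (chr11:6683291-6683590, minus strand): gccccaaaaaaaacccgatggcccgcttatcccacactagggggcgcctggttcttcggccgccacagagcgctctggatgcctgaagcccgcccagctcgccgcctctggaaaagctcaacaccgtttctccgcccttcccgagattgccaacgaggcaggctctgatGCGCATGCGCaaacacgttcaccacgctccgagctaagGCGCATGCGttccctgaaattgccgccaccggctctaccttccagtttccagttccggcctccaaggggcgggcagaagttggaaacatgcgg
MRPL18 (chr6:159789562-159789861, plus strand): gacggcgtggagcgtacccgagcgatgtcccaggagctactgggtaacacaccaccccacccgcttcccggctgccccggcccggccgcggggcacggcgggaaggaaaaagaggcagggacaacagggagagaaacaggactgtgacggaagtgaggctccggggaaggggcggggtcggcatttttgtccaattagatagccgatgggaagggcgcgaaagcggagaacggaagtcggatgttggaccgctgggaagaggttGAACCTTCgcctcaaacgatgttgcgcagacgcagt

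YY1 is a zinc finger factor that binds many promoters close to the start. Its core, AAGATGGC, was present in 23 of 83 member windows (27.7%), against 2.89% of all windows and 3.53% of windows of protein-coding genes. In 16 members it lay after the start site, beginning 6 to 35 bases downstream, which held for 19.3% of member windows and 1.49% of all windows. The letters contain ATG, so a match downstream of the start can coincide with a start codon. The stretches below are 60 letters that begin 10 bases before the start site, with the YY1 core in capitals, for 3 members that fell in resistant cells (MRPL42, MRPS18B and MRPL20), 2 that rose there (MRPS30 and MRPL45) and 1 that rose at 71.25 nM (MRPL22).
MRPL42 (chr12:93467504-93467563, plus strand): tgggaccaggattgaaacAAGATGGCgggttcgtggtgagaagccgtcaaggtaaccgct
MRPS18B (chr6:30617830-30617889, plus strand): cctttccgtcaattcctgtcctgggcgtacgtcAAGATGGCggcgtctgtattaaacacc
MRPL20 (chr1:1407244-1407303, minus strand): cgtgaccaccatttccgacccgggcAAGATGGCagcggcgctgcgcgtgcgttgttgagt
MRPS30 (chr5:44808937-44808996, plus strand): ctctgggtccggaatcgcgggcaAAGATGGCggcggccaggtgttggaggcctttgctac
MRPL45 (chr17:38297158-38297217, plus strand): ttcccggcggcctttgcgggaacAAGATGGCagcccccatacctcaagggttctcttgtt
MRPL22 (chr5:154941063-154941122, plus strand): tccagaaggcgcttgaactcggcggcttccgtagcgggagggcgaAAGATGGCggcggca

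The ETS core was found in 38.6% of member windows, against 10.3% of all windows. It is the recognition letters of the ETS family, which includes the GABPA subunit of NRF2/GABP, a factor of nuclear mitochondrial genes. For the E-box CACGTG, bound by MYC among others, the shares were 10.8% and 7.26%. For the NRF1 core they were 3.61% and 1.92%, and for the heat shock units 8.43% and 6.77%. In places motifs overlapped, as an ETS core and heat shock units did in MRPL48. Between windows of members that were lower in resistant cells and windows of the other members, the YY1 core stood in 20.9% and 35%, the ETS core in 32.6% and 45%. A match describes letters in a window and shows no binding.

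Most of the members that moved went down. At 25 nM against control 18 of the 77 members fell and 3 rose, at 71.25 nM 30 fell and 9 rose, and in resistant cells 40 fell and 12 rose. A member was said to rise or fall where the moderated test of limma gave an adjusted p under 0.05 over all kept probes. Among all genes tested the calls were even after quantile normalization: 13.7% lower and 13.3% higher with 25 nM, 19.6% and 19.4% with the higher dose, and 24.1% and 23% for resistance. The members' shares were 23.4% lower and 3.9% higher, then 39% and 11.7%, then 51.9% and 15.6%. The members' signals lie above those of most genes, where calls are more frequent. Among the 2126 genes with a mean log2 signal between 8.84 and 10.6, the quartiles of the members, 18.3%, 27.5% and 32.6% were lower and 20.7%, 28.3% and 31.3% higher in the same 3 comparisons. The 3 comparisons share the control arrays, so their counts are not independent.

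The shifts were small for most members. The median log2 difference of the 77 was -0.12 with the lower and -0.18 with the higher dose, and -0.27 in resistant cells, while that of all genes tested lay between -0.020 and -0.0018. The median of the members' deviations from their control means was -0.02, -0.01 and 0.04 on the control arrays. It was -0.09, -0.12 and -0.15 on the 25 nM arrays, -0.19, -0.21 and -0.18 on the 71.25 nM arrays, and -0.27, -0.28 and -0.32 on the resistant arrays. The 4 groups did not overlap in this value. The quartiles of the members' differences in resistant cells were -0.62 and 0.07, and only 3 members fell by more than 1 on the log2 scale, MRPS26, MRPL24 and MRPL14. Without array 6 the median at 25 nM was -0.07, and in that comparison leaving out array 4 took the members that rose from 3 to 1. Scaling arrays to their medians in place of quantile normalization gave 5 higher and 35 lower members with 71.25 nM, beside 18.6% and 21.1% of all genes, and 5 and 41 for resistance, beside 26.1% and 22.9%. Housekeeping genes as the scale also gave 5 and 41 there, beside 26.6% and 22.1%. With 71.25 nM they gave 9 higher and 25 lower members, beside 25.9% and 14.2% of all genes, so the evenness over all genes did not hold under that scale.

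**Figure D1:**
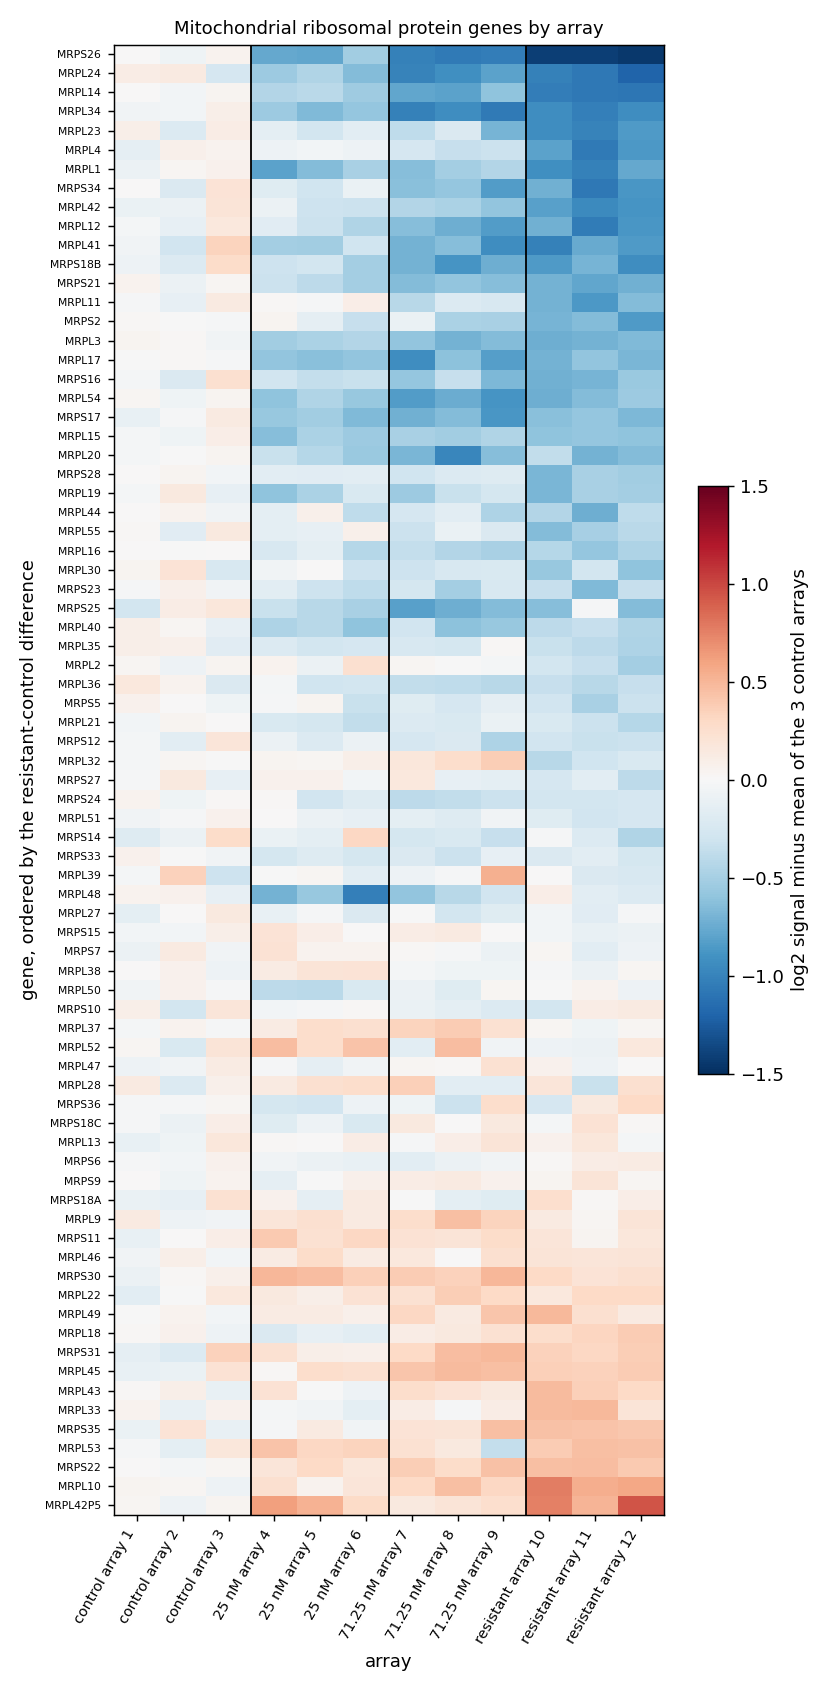
Heat map of the 77 members (rows, ordered by the difference between resistant and control cells) on the 12 arrays (columns). Colour gives the log2 signal minus the mean of the 3 control arrays. The upper rows are blue on the drug-treated and resistant arrays, with MRPS26 the lowest at -1.43 in resistant cells, and the lower rows are red, with MRPL10 at 0.63. MRPL42P5 stands in the lowest row, and its probe was detected on 0 control arrays.

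**Figure D2:**
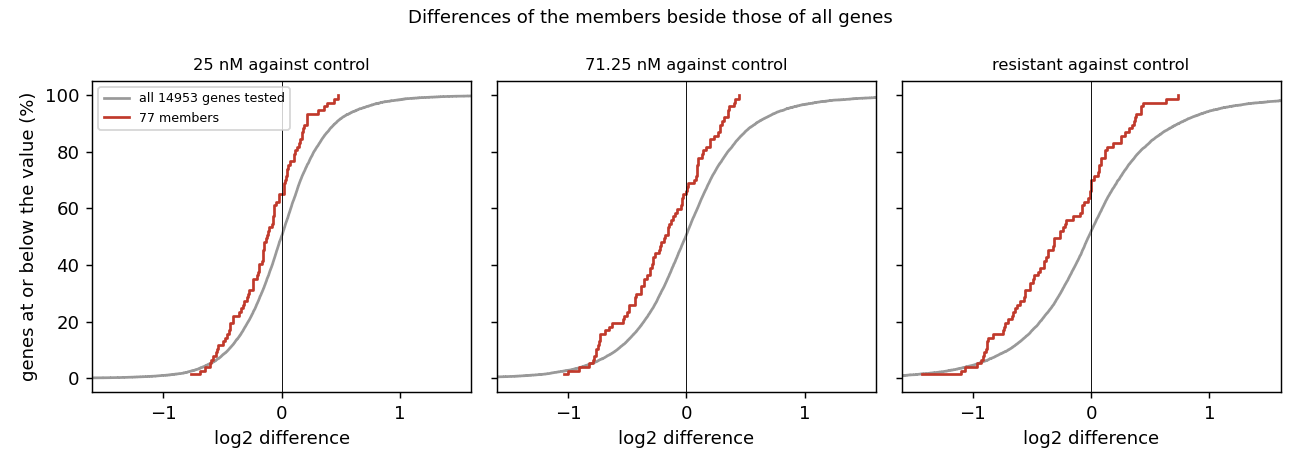
Cumulative share of genes (vertical axis, percent) at or below each log2 difference (horizontal axis) in the 3 comparisons with control, for the 77 members (red) and all 14953 genes tested (grey). The member curve lies to the left of the grey curve over most of its range, with medians of -0.12, -0.18 and -0.27.

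The largest fall was that of MRPS26, a small-subunit protein with no bacterial relative. Its normalized log2 signal was 9.24, 9.17 and 9.29 on the control arrays, 8.46, 8.46 and 8.71 with 25 nM, 8.22, 8.17 and 8.20 with 71.25 nM, and 7.81, 7.82 and 7.78 in resistant cells. No group overlapped another. The log2 difference from control was -0.69 at 25 nM (SE 0.098, adjusted p = 0.000197), -1.03 at 71.25 nM (adjusted p = 2.59e-06) and -1.43 in resistant cells (adjusted p = 6.63e-08), a 0.372-fold level. Resistant cells were also below 71.25 nM, by -0.39 (adjusted p = 0.0116). The RefSeq window of MRPS26 shown above carries its ETS core upstream of the start site.

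MRPL24, MRPL4 and MRPL23, which lie around the peptide exit tunnel through which the growing chain leaves the large subunit, fell in resistant cells. MRPL24 is the relative of bacterial L24 at the tunnel's mouth. Its log2 signals were 10.84, 10.86 and 10.47 in control, 10.18, 10.27 and 10.07 with 25 nM, 9.72, 9.80 and 9.92 with 71.25 nM, and 9.70, 9.65 and 9.53 in resistant cells. Each of these groups lay below control without overlap, by -0.55, -0.91 and -1.10 (SE 0.121, adjusted p = 0.00457, 5.21e-05 and 5.75e-06). MRPL4 and MRPL23, relatives of the tunnel proteins L4 and L23, were called lower at 71.25 nM and in resistant cells and not at 25 nM. MRPL4 read 8.69, 8.91 and 8.89 in control, 8.75, 8.79 and 8.75 with 25 nM, 8.58, 8.48 and 8.51 with 71.25 nM, and 8.02, 7.77 and 7.97 in resistant cells. At 25 nM it overlapped control (-0.06, adjusted p = 0.702), and it was lower by -0.31 at 71.25 nM (adjusted p = 0.0302) and by -0.91 in resistant cells (adjusted p = 6.66e-06). MRPL23 differed by -0.19 (adjusted p = 0.319), -0.43 (adjusted p = 0.0194) and -0.93 (adjusted p = 5.39e-05). MRPL22, another tunnel protein, did not fall: it was 0.30 above control at 71.25 nM (adjusted p = 0.0385), a call lost without arrays 1, 2, 4, 7, 8 or 9 in turn, and 0.25 above in resistant cells (adjusted p = 0.0688). MRPL45, which has no bacterial relative and holds the ribosome near the inner membrane, rose by 0.44 at 71.25 nM (adjusted p = 0.00674) and 0.36 in resistant cells (adjusted p = 0.0177). That last call was lost without array 1 (adjusted p = 0.072) or array 2 (adjusted p = 0.067) and under both other scalings.

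The stalks that meet translation factors and leaving tRNAs split. MRPL1, of the L1 stalk at the tRNA exit, read 8.67, 8.79 and 8.83 in control, 7.96, 8.11 and 8.27 with 25 nM, 8.12, 8.25 and 8.32 with 71.25 nM, and 7.84, 7.75 and 7.996 in resistant cells. All 9 drug or resistant arrays were below control, with differences of -0.65, -0.53 and -0.90 (adjusted p = 0.000866, 0.00206 and 1.75e-05), and the 2 doses overlapped. MRPL12, the factor-recruiting protein of the other stalk, fell by -0.73 at 71.25 nM (adjusted p = 0.000276) and -0.88 in resistant cells (adjusted p = 3.8e-05). MRPL11, at the base of that stalk, fell in resistant cells by -0.74 (adjusted p = 6.56e-05). MRPL10, the protein on which MRPL12 is mounted, went the other way. It read 8.17, 8.16 and 8.06 in control, 8.37, 8.18 and 8.31 with 25 nM, 8.43, 8.58 and 8.44 with 71.25 nM, and 8.90, 8.67 and 8.71 in resistant cells. The groups did not overlap, and the differences from control were 0.16 (adjusted p = 0.295), 0.36 (adjusted p = 0.0135) and 0.63 (adjusted p = 0.000163). The call at 71.25 nM was lost without array 8 (adjusted p = 0.052). The other kept probe of MRPL10 differed by 0.37 in resistant cells (adjusted p = 0.0541).

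Other large-subunit relatives of bacterial proteins fell at both doses and in resistant cells. MRPL14 lies at the face between the subunits. It read 10.22, 10.17 and 10.25 in control, 9.78, 9.81 and 9.68 with 25 nM, 9.43, 9.41 and 9.60 with 71.25 nM, and 9.17, 9.14 and 9.14 in resistant cells. The groups formed 4 separate steps, at -0.46 (adjusted p = 0.00281), -0.73 (adjusted p = 3.94e-05) and -1.07 (adjusted p = 7.08e-07) from control. MRPL34 read 10.46, 10.48 and 10.61 in control, 9.97, 9.85 and 9.94 with 25 nM, 9.51, 9.59 and 9.46 with 71.25 nM, and 9.58, 9.49 and 9.58 in resistant cells. Its level in resistant cells overlapped that at 71.25 nM, and the differences were -0.59, -0.997 and -0.96 (SE 0.094, adjusted p = 0.00045, 2.48e-06 and 1.79e-06). MRPL17, whose window above holds the NRF1 core, differed by -0.61, -0.79 and -0.66 (adjusted p = 0.00059, 3.23e-05 and 9.03e-05). MRPL15 differed by -0.55, -0.49 and -0.60, and MRPL20 by -0.44, -0.77 and -0.57, all of them called. Among proteins without a bacterial relative, MRPL54 differed by -0.54, -0.82 and -0.65, MRPL40 by -0.50, -0.49 and -0.40, and MRPL41 by -0.45, -0.76 and -0.87, again all called. MRPL42, with a YY1 core after its start, differed by -0.24 at 25 nM (adjusted p = 0.14), fell by -0.50 at 71.25 nM (adjusted p = 0.00308) and by -0.88 in resistant cells (adjusted p = 2.2e-05).

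In the small subunit, falls after that of MRPS26 included those of MRPS34, MRPS18B, MRPS21, MRPS2, MRPS16 and MRPS17. MRPS34, a subunit specific to mitochondria whose loss is known in humans to cause a translation disorder, read 9.39, 9.16 and 9.59 in control and 9.20, 9.08 and 9.28 with 25 nM, which overlapped. It read 8.75, 8.80 and 8.54 with 71.25 nM and 8.66, 8.31 and 8.51 in resistant cells, all below both other groups. The differences were -0.19 (adjusted p = 0.325), -0.68 (adjusted p = 0.00103) and -0.89 (adjusted p = 8.48e-05). MRPS21, a relative of bacterial S21, differed by -0.41, -0.62 and -0.74, all called. MRPS17, a relative of bacterial S17, differed by -0.58, -0.74 and -0.62 (adjusted p = 0.000914, 6.59e-05 and 0.000188). MRPS2 and MRPS16, relatives of bacterial S2 and S16, fell in resistant cells by -0.73 (adjusted p = 0.000384) and -0.66 (adjusted p = 0.000726). MRPS25 was -0.73 from control at 71.25 nM (adjusted p = 0.00315) and -0.43 in resistant cells (adjusted p = 0.0455). Its resistant arrays, at 6.08, 6.71 and 6.07, overlapped control at 6.44, 6.83 and 6.89, and alternatives were not run for it. MRPS18B is 1 of 3 human relatives of bacterial S18, and it fell by -0.78 at 71.25 nM (adjusted p = 0.00035) and -0.82 in resistant cells (adjusted p = 0.00014). Of the other relatives of S18, MRPS18C differed by 0.07 in resistant cells (adjusted p = 0.653) and MRPS18A by 0.12 (adjusted p = 0.471).

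**Figure D3:**
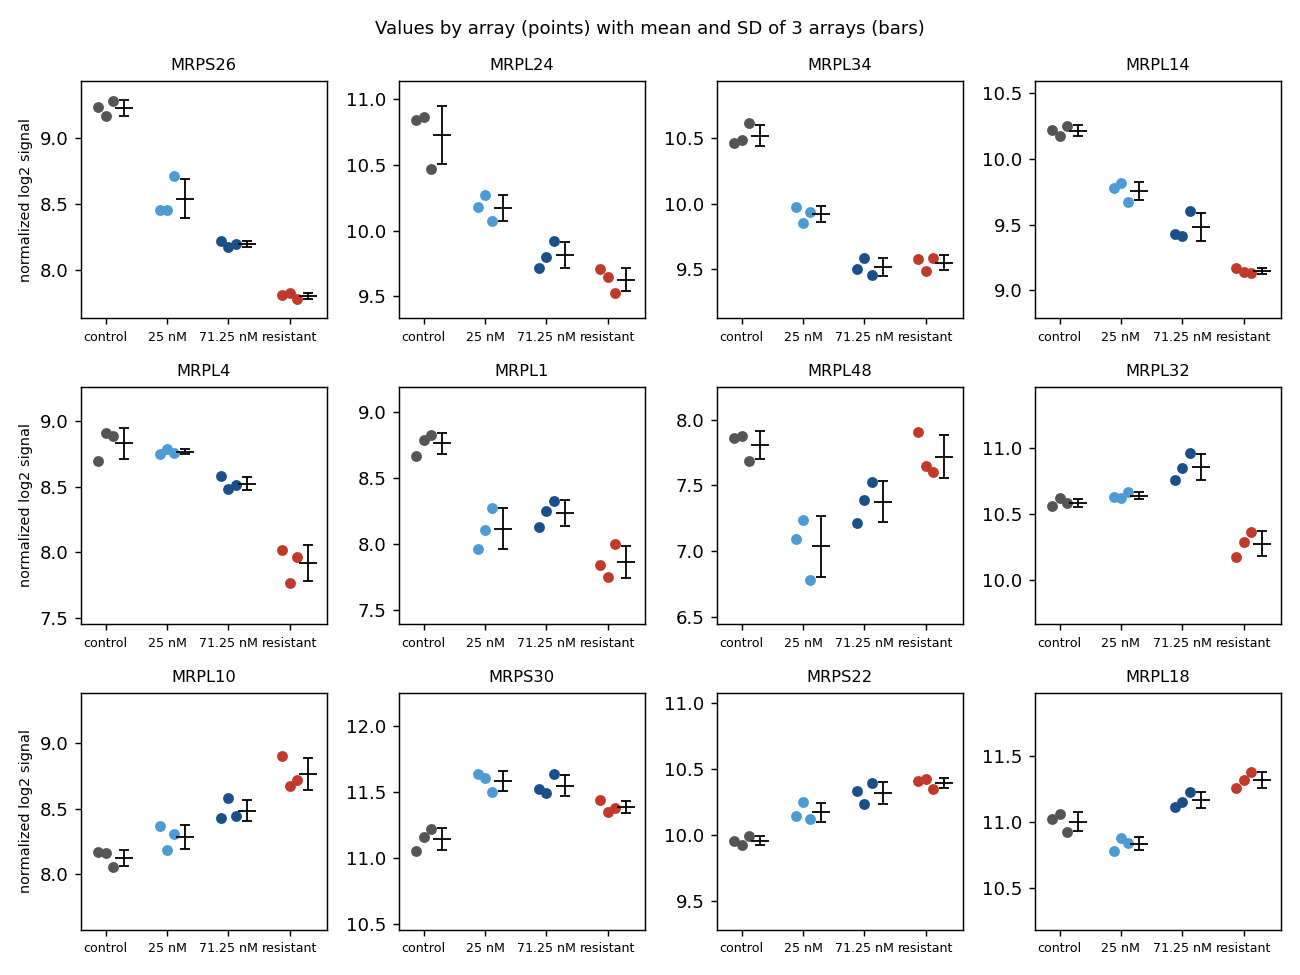
Normalized log2 signal (vertical axis) of 12 members on each of the 12 arrays (points, 3 per group), with the mean and SD of the 3 arrays (bars). MRPS26, MRPL24 and MRPL14 fall over the groups, MRPL10 rises, MRPL48 is lowest at 25 nM, and MRPL32 is highest at 71.25 nM and lowest in resistant cells. Vertical axes differ between panels and do not start at 0.

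The rises were smaller, and 8 of the 12 in resistant cells were of proteins without a bacterial relative. MRPS30, a large-subunit protein despite its name, read 11.05, 11.16 and 11.22 in control, 11.64, 11.61 and 11.50 with 25 nM, 11.52, 11.49 and 11.64 with 71.25 nM, and 11.44, 11.35 and 11.38 in resistant cells. Each group lay above control, by 0.44 (adjusted p = 0.0039), 0.40 (adjusted p = 0.00437) and 0.25 (adjusted p = 0.0474). Alternatives were not run for the call of MRPS30 in resistant cells. MRPS22, a small-subunit protein known from inherited disorders, was 0.22 above control at 25 nM (adjusted p = 0.101), and rose by 0.36 at 71.25 nM (adjusted p = 0.00622) and 0.44 in resistant cells (adjusted p = 0.00132). Its 9 drug or resistant arrays, at 10.12 to 10.42, all lay above the control arrays at 9.92 to 9.99. In resistant cells MRPL53 rose by 0.43, MRPS35 by 0.42, MRPL33 by 0.38, MRPL43 by 0.37 and MRPS31 by 0.34, with adjusted p-values from 0.00824 (MRPS35) to 0.0494 (MRPS31). Of these MRPL33 alone has a bacterial relative. The 3 arrays of resistant cells lay above control for each but MRPS31, whose control array 3 overlapped. At 71.25 nM MRPS31 rose by 0.41, MRPL9 by 0.35 and MRPL37 by 0.32, and at 25 nM MRPS11 by 0.31 (adjusted p = 0.0311). Of the members named here as rising, the calls of MRPS31 at 71.25 nM and in resistant cells, MRPL53 in resistant cells and MRPS11 at 25 nM each ended without control array 1 and also without control array 2. MRPS31 lost its call in resistant cells without any 1 of the 12 arrays except control array 3, and at 71.25 nM also without arrays 8 or 9, MRPL53 also without arrays 11 or 12, and MRPS11 also without arrays 4 or 6. The calls of MRPL9 and MRPL37 at 71.25 nM ended without array 8, and that of MRPL9 without control array 2. The number of members that rose in resistant cells was 7 without control array 1 and 7 without control array 2, and at 71.25 nM it was 4 without array 8. MRPL33, MRPL18, MRPL53 and MRPS31 lost their calls in resistant cells under both other scalings, and MRPL43 under housekeeping scaling. Both scalings also ended the calls of MRPL22, MRPL32 and MRPL37 at 71.25 nM and of MRPS11 at 25 nM. The call of MRPS31 at 71.25 nM ended under median scaling.

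The pseudogene MRPL42P5 was not detected on any control array, so its rise has only a lower bound, at least 1.19-fold at 25 nM (adjusted p = 0.0117) and at least 1.42-fold in resistant cells (adjusted p = 0.000233), against a floor set by the dimmest detected probe. Its measured log2 means were 4.66 in control, 5.13 at 25 nM, 4.85 with 71.25 nM and 5.39 in resistant cells, near the background. The parent gene MRPL42 moved in the opposite direction in resistant cells. On the authors' values the 25 nM difference was 0.15 and not called (adjusted p = 0.065), and without array 4 its adjusted p was 0.055.

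MRPL48, MRPL32 and MRPL18 did not follow the drug groups in steps. MRPL48, of the central protuberance of the large subunit, read 7.86, 7.87 and 7.69 in control, 7.10, 7.24 and 6.79 with 25 nM, 7.21, 7.39 and 7.52 with 71.25 nM, and 7.91, 7.65 and 7.60 in resistant cells. It fell by -0.77 at 25 nM (SE 0.136, adjusted p = 0.000981), the largest fall of a member there, and by -0.43 at 71.25 nM (adjusted p = 0.0224), while resistant cells overlapped control (-0.09, adjusted p = 0.637). MRPL32 is a large-subunit protein that in yeast and mouse is matured by the m-AAA protease. It read 10.56, 10.62 and 10.58 in control, 10.63, 10.62 and 10.67 with 25 nM, 10.76, 10.85 and 10.96 with 71.25 nM, and 10.17, 10.29 and 10.36 in resistant cells. It was 0.27 above control at 71.25 nM (adjusted p = 0.0402) and 0.31 below it in log2 in resistant cells (-0.31, adjusted p = 0.015), and the step between those groups was -0.58 (adjusted p = 0.000667). Leaving out array 1 (adjusted p = 0.10) or any of arrays 2 to 6, 8, 9 and 11 ended the call of the rise at 71.25 nM. MRPL18, which binds 5S ribosomal RNA and has a cytosolic form described in heat-stressed human cells, was -0.17 from control at 25 nM (adjusted p = 0.214), 0.17 at 71.25 nM (adjusted p = 0.178) and rose by 0.32 in resistant cells (adjusted p = 0.0105). Its window above, 1 of 3 that RefSeq gives, has the heat shock units just after the start site. In another of the windows they lie upstream of the start site, at -41 to -34, and the remaining window holds an ETS core. Whether the array's probe reads the cytosolic form was not tested.

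Between the doses few members differed. Of the 77, 0 were higher and 2 lower at 71.25 nM than at 25 nM, where 2.98% of all genes were called higher and 2.88% lower. The 2 were MRPL34 (-0.40, adjusted p = 0.025) and MRPS34 (-0.49, adjusted p = 0.0468), and the members' median difference was -0.08. Neither call held without array 4, 5, 6, 7 or 9, and the members called then numbered 0. The call of MRPS34 also ended without arrays 1, 8 or 12.

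Resistant cells against 71.25 nM had 11 members lower and 2 higher, beside 10.3% and 11.3% of all genes. The median difference of the members was -0.06. The larger falls were those of MRPL4 (-0.60, adjusted p = 0.000853), MRPL32 (-0.58), MRPL23 (-0.50, adjusted p = 0.0153), MRPL11 (-0.45, adjusted p = 0.00793) and MRPS26 (-0.39). MRPL53 was higher (0.42, adjusted p = 0.0493). MRPL42P5 was called higher too (adjusted p = 0.0066), but it was detected on only 1 of the 3 arrays at 71.25 nM, so the size of that difference is not given. Its call was lost with the replicate block on the authors' values (adjusted p = 0.0608). The 13 calls became 7 without array 8 and 6 without array 11. The call of MRPL23 ended without arrays 7, 8 or 11, and that of MRPL53 without any of arrays 1, 2, 4, 5, 6, 9, 10, 11 and 12. Scaling to housekeeping genes gave 1 higher and 18 lower members, beside 8.09% and 14.4% of all genes. Cyclic loess gave 3 and 8, beside 12% and 8.67%.

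Across the 4 groups, limma's F test called 50 of the 77 members, and 52.7% of all genes tested. In none of the 5 comparisons were 19 members called, among them MRPL13, MRPS6, MRPS7, MRPS9 and MRPS15. MRPS9 differed from control by -0.02, 0.10 and 0.09, and MRPL13 by 0.05, 0.09 and 0.07. The group mean was lowest in resistant cells for 37 of the 77 members. Neither this count nor that of the 19 members without a call was made over all genes.

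Both subunits had more falls than rises in each comparison with control. In resistant cells 27 of 49 large-subunit genes fell and 8 rose, and 13 of 26 small-subunit genes fell and 3 rose. At 71.25 nM the large subunit had 19 and 7 such genes and the small subunit 11 and 2, and at the lower dose these numbers were 15 and 1, and 3 and 1. The 3 falls of the small subunit at 25 nM are 11.5% of its genes, below the 13.7% of all genes, while the large subunit had 30.6%. At 71.25 nM the shares lower were 38.8% for the large and 42.3% for the small subunit against 19.6% of all genes. Median differences in resistant cells were -0.32 and -0.27. Of 45 members with a bacterial relative 28 fell and 3 rose in resistant cells, and of 30 specific to mitochondria 12 fell and 8 rose. Of the relatives of S18, only MRPS18C was counted with a bacterial relative. MRPS18A and MRPS18B, the latter 1 of the falls, were counted as specific to mitochondria. The differences between these classes were not tested.

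**Figure D4:**
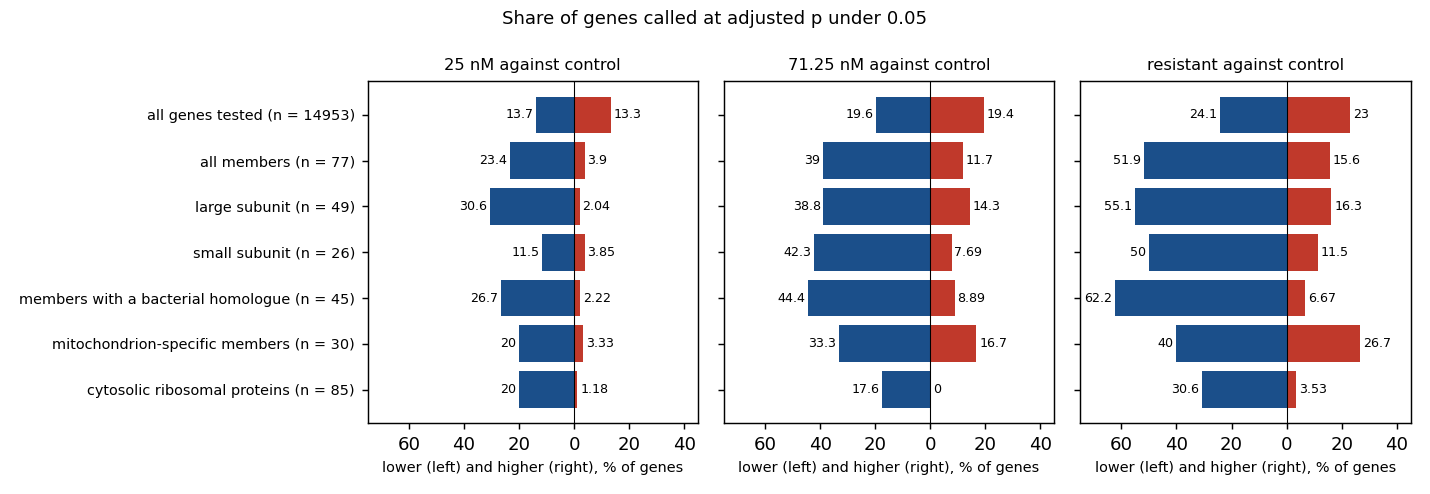
Share of genes called lower (blue, to the left) and higher (red, to the right), in percent, in the 3 comparisons with control. In resistant cells 51.9% of members were lower and 15.6% higher, against 24.1% and 23% of all genes. Of members counted with a bacterial relative, which leave out MRPS18A and MRPS18B, 62.2% were lower.

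Where several probes read 1 member, they mostly agreed in sign. There were 25 such members. In resistant cells 18 of them were called, and in 16 of the 18 the signs of all kept probes were equal. MRPL21 was the member with probes called in opposite directions, at -0.25 (adjusted p = 0.0457), 0.46 (adjusted p = 0.00233) and, for the brightest probe, -0.32 (adjusted p = 0.0124). MRPL43 had kept probes at 0.37, 0.88 and 0.01 (adjusted p = 0.0103, 1.02e-05 and 0.974).

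Genes that start near a member on the other strand were set beside that member. Some of them, such as ABHD8 and OAZ3, start downstream of the member's start, so not all pairs are divergent. RefSeq windows placed a start on the other strand within 1000 bases for 29 members, and 21 of these neighbours were measured (MRPL46 and MRPS11 count as neighbours of each other), each from its own brightest probe. In resistant cells 9 neighbours rose and 4 fell, with a median of 0.19, where 23% of all genes rose and 24.1% fell. TMEM63B, a membrane channel gene whose nearest start lies 240 bases from one of MRPL14, rose by 0.70, 0.84 and 1.10 (adjusted p = 0.00169, 0.000235 and 1.37e-05), where MRPL14 fell by -0.46, -0.73 and -1.07. APBA3, 990 bases from MRPL54, rose by 0.90, 0.76 and 0.76, and PPP1R10, a phosphatase regulator 597 bases from MRPS18B, by 0.44, 0.60 and 0.70. In resistant cells MRPL32 fell by -0.31 and PSMA2, a proteasome core subunit that starts 202 bases away, rose by 0.68 (adjusted p = 0.000965). ABHD8, whose start lies 560 bases downstream of that of MRPL34 on the other strand, rose there by 0.55 (adjusted p = 0.000611). MRPL18 and TCP1, a chaperonin subunit 210 bases away, both rose in resistant cells, by 0.32 and 0.48 (adjusted p = 0.0105 and 0.00559). The other neighbours that rose there were MITD1 (0.38), beside MRPL30, which fell by -0.48, and ZNF189 (0.84) and HELQ (0.42), beside MRPL50 and MRPS18C, which were not called. Falls were shared by HIRA (-0.625, adjusted p = 0.0184) and MRPL40 (-0.40), by NCAPD2 (-0.96, adjusted p = 1.32e-06) and MRPL51 (-0.24), and by SARS2 (-0.455, adjusted p = 0.0022) and MRPS12 (-0.32). The largest fall of a measured neighbour was that of EME1 (-1.28, adjusted p = 8.16e-07), beside MRPL27, which was not called (-0.08, adjusted p = 0.624). Alternatives were not run for neighbours.

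**Figure D5:**
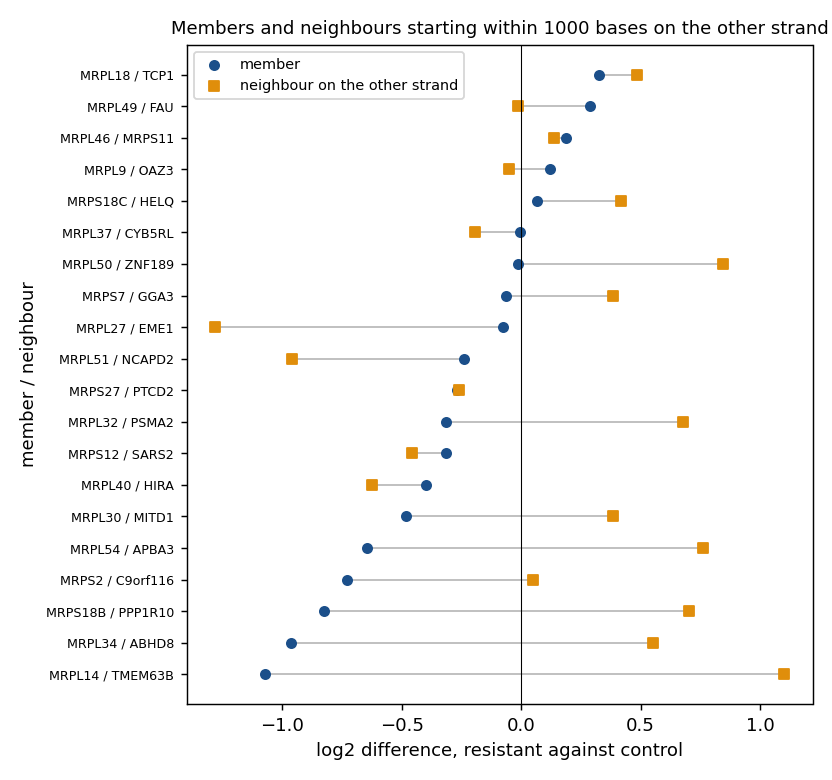
Log2 difference between resistant and control cells (horizontal axis) of members (circles) and of the genes starting within 1000 bases on the other strand (squares), 1 pair per row. MRPL14 at -1.07 and TMEM63B at 1.10 are the widest pair, and MRPL18 and TCP1 lie together at 0.32 and 0.48.

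A list of ribosomal proteins under other symbols, which also holds OXA1L, the inner-membrane insertase that takes up chains from this ribosome and is no part of it, included both directions. Of its 7 measured genes, 4 (57.1%) fell and 1 (14.3%) rose in resistant cells, beside 24.1% and 23% of all genes. The median was -0.49, which is the value of OXA1L (adjusted p = 0.00491). Of the other falls, that of MRP63, a large-subunit protein (-0.52, adjusted p = 0.0499), was lost under 15 alternatives, with an adjusted p of up to 0.29. The riser was DAP3, the GTP-binding protein also called MRPS29. DAP3 read 10.29, 10.18 and 10.07 in control, 10.89, 10.86 and 10.73 with 25 nM, 11.02, 10.94 and 11.10 with 71.25 nM, and 10.79, 11.01 and 10.95 in resistant cells. Each of these arrays lay above control, and the differences were 0.65, 0.84 and 0.74 (SE 0.1, adjusted p = 0.000474, 2.68e-05 and 5.07e-05). CHCHD1, another small-subunit protein, differed by -0.51, -0.69 and -0.60, and ICT1, a peptidyl-tRNA hydrolase built into the large subunit, by -0.43, -0.43 and -0.52, all called.

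Of 19 measured genes that assemble the ribosome, 7 (36.8%) fell and 3 (15.8%) rose in resistant cells, beside 24.1% and 23% of all genes. Their median was -0.26. C18orf22, an older symbol of the small-subunit maturation factor RBFA, fell by -0.73, -0.71 and -1.02, and MTERFD1, a regulator of mitochondrial transcription and ribosome assembly, by -0.45, -0.50 and -0.78. MRM1, which methylates the large ribosomal RNA, fell by -1.19 at 71.25 nM and -1.06 in resistant cells. NGRN, part of a module that binds that RNA, rose by 0.42 and 0.76 in these comparisons, and the first of these calls ended under median scaling (adjusted p = 0.0584).

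Of 20 measured factors of mitochondrial translation 10 (50%) fell and 3 (15%) rose in resistant cells, beside 24.1% and 23% of all genes. Their median was -0.29. The elongation factor GFM1 differed by -0.40, -0.60 and -0.73, and the ribosome recycling factor MRRF by -0.52, -0.60 and -0.70. GFM2, the other recycling factor, rose by 0.86, 0.67 and 0.56. PDF, which removes the formyl group from new mitochondrial proteins, fell by -0.53 at 71.25 nM and -1.14 in resistant cells (adjusted p = 1.01e-05). GTPBP3 and MTO1, which together modify mitochondrial tRNAs, parted: GTPBP3 differed by -0.51, -0.71 and -1.06, and MTO1 by 0.62, 0.68 and 0.48, all called.

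Of 15 genes for mitochondrial DNA and RNA upkeep 7 (46.7%) fell and 0 rose in resistant cells, beside 24.1% and 23% of all genes. TFAM, which packages mitochondrial DNA, differed by -0.13 and -0.10 at the doses (adjusted p = 0.4 and 0.51) and fell by -0.64 in resistant cells (adjusted p = 0.000173). Among 13 mitochondrial chaperones and proteases 4 (30.8%) rose and 5 (38.5%) fell in resistant cells, beside 23% and 24.1% of all genes. TRAP1, the HSP90 of mitochondria, differed by -0.34, -0.84 and -1.58 (adjusted p = 0.0144, 1.01e-05 and 1.4e-08), and HSPA9, their HSP70, by 0.35, 0.50 and 0.37 (adjusted p = 0.0333, 0.00317 and 0.0149). The call of TRAP1 at 25 nM ended without array 5 (adjusted p = 0.0541). That of HSPA9 at 25 nM ended without array 1, 3, 4, 5 or 6, under median scaling and with only the 2 groups compared, with an adjusted p of up to 0.122. In resistant cells it ended without array 3 or 11 and under median scaling, with up to 0.0642. LONP1, a matrix protease, rose by 0.71 and 0.81 at the doses and was 0.22 above control in resistant cells (adjusted p = 0.0763).

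Of 12 measured regulators 5 (41.7%) rose and 2 (16.7%) fell in resistant cells, beside 23% and 24.1% of all genes. The stress factors ATF4, ATF5 and DDIT3 rose in each comparison with control: ATF4 by 0.77, 1.22 and 1.21, ATF5 by 1.15, 1.21 and 1.36, and DDIT3 by 1.75, 2.98 and 3.53. GABPA, the ETS factor of nuclear mitochondrial genes, differed by -0.86 (adjusted p = 0.019), -0.49 (adjusted p = 0.131) and -0.55 (adjusted p = 0.0836). Its call at 25 nM was lost without array 2, 3, 5 or 6 and with no filter, with an adjusted p of up to 0.0757. GABPB1, which pairs with GABPA, rose by 0.60, 0.81 and 0.75 (adjusted p = 0.0132, 0.00113 and 0.00143). PPRC1, a coactivator of mitochondrial genes, fell in resistant cells by -0.47 (adjusted p = 0.0011). NRF1 was not detected on resistant arrays, and control was at least 1.05-fold higher (adjusted p = 0.0162), a call lost under 7 alternatives, both other scalings and the authors' values among them, with an adjusted p of up to 0.488. The proteins of the cytosolic ribosome, 85 genes by their RPL and RPS symbols, had 17, 15 and 26 genes lower in the 3 comparisons with control. These were 20%, 17.6% and 30.6% of the 85, beside 13.7%, 19.6% and 24.1% of all genes tested. Higher were 1, 0 and 3, or 1.18%, 0% and 3.53%, beside 13.3%, 19.4% and 23%. The medians were -0.09, -0.04 and -0.12. The difference between the 2 kinds of ribosome was not tested.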

How the data were processed

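For each probe the deposited signal table gives a linear intensity, without normalization of the arrays, and beside it a detection p-value, as the deposited values show. The authors' processed values are linear intensities too; the series' design text says they were corrected with housekeeping genes and quantile normalized, and served as an alternative. Columns of the signal table carry an array number (1 to 12) and a group. RNA was isolated with an RNeasy kit, per the labels' protocols.

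Background was corrected by the normexp model of limma, with offset 16 and the detection p-values, before quantile normalization and log2 (limma 3.58.1, R 4.3.3; plots with matplotlib 3.10.9). Of 47227 probes, 20414 detected at p under 0.05 on at least 3 arrays were kept. A linear model took in all 12 arrays with a mean for each group, and two-sided moderated tests were Benjamini-Hochberg adjusted over all kept probes. The procedure was tested on simulated data. The number of arrays limits the precision: an exact permutation of 3 against 3 cannot go below 0.1, and the median SE of a gene's difference was 0.13.

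Members and lists were chosen with earlier results of these data known. Named members are the 10 largest rises and falls among calls against control, 5 in the other comparisons, those with opposed probes, and neighbours of named members; from other lists up to 3 called genes each way. A few further members, such as MRPL11, MRPS18A and those with no call, were added after their values were seen. A probe undetected in a group got a bound: the other group's mean over a floor, which on each array was the lowest detected signal or the probe's own if higher. Promoter sequences are RefSeq's (GRCh38.p14). Alternatives changed the background correction, the normalization, the filter, the probe rule, the prior, the arrays in the fit and the source of values. Genes encoded by mitochondrial DNA are not analysed here.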

Additional observations from a re-analysis of the deposited data

How the results depend on the processing

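The array count limits what could be called, and signal near background limits MRPL42P5. No median of the members and no ranked call of a named gene changed its sign under the alternatives. The median of all genes did: in resistant cells it went from -0.0201 to 0.0906 under median scaling, and at 71.25 nM from -0.00569 to 0.129 under housekeeping scaling. Gene by gene, the alternatives were run only for the calls ranked by the naming rule. Other differences given above, among them those of MRPS2, MRPS16, MRPS21 and GABPB1, were not checked in this way. Calls over all genes in resistant cells went from 3440 higher and 3607 lower to 3910 and 3425 under median scaling. Of the named members, 11 of 13 at 25 nM, 13 of 19 at 71.25 nM, 14 of 20 in resistant cells, 0 of 2 between the doses and 4 of 7 in resistant cells against 71.25 nM kept their call under every alternative run. The cause of the changes below was not tested. Housekeeping scaling put the median of all genes in resistant cells at 0.101.

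The median difference of the members at 25 nM was -0.175 under median scaling. At 71.25 nM it was -0.148 without background correction, -0.152 with an offset of 50, -0.264 under median and -0.133 under housekeeping scaling, -0.148 on the authors' values and -0.143 with the mean of a gene's probes. In resistant cells it was -0.232 without background correction and on the authors' values, -0.374 under median and -0.364 under housekeeping scaling. Between the doses it was -0.116 under median and -0.0356 under housekeeping scaling. For resistant cells against 71.25 nM it was -0.106 and -0.227 under these scalings.

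The members called at 25 nM numbered 34 without background correction, 33 on the authors' values and 32 with a trended, robust prior. Between the doses the number was 17 without background correction and on the authors' values, 11 with an offset of 50, 0 under housekeeping scaling and with only the 2 groups compared, 7 with detection on all 12 arrays, 4 with the mean of probes and 12 with the other prior. For resistant cells against 71.25 nM it was 21 without background correction and on the authors' values, and 8 with only the 2 groups compared.

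Leaving out each array in turn, the number of members called ranged from 15 to 22 at 25 nM, 29 to 39 at 71.25 nM, 42 to 49 in resistant cells, 0 to 4 between the doses, 6 to 13 in resistant cells against 71.25 nM, and 39 to 47 in the F test. The medians ranged from -0.145 to -0.0749, -0.21 to -0.142, -0.309 to -0.266, -0.0978 to -0.0691 and -0.0832 to -0.0577 in the same order.

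No consistent pairing by replicate number was seen: in no comparison did all same-numbered deviations correlate above 0.1. With 3 samples a group this check cannot show that the samples were unpaired. With the replicate number as a block on the authors' values, which carry it, 32 members were called at 25 nM, 14 between the doses, 48 at 71.25 nM, 55 in resistant cells and 18 in resistant cells against 71.25 nM, with medians of -0.101, -0.0789, -0.148, -0.232 and -0.0566.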
